A study of Gallus gallus with 4 samples.

Results

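The abundant miRNAs of the chick midbrain region are the 66 rows, out of 1140 in the miRNA table and 24689 in all tables, that held 5000 or more reads in both libraries made without oxidation. They were chosen by those read counts alone, so their abundance in the libraries without oxidation is a description and is not tested. The series measured small RNA of 19 to 38 nucleotides from the cranial midbrain of chick (Gallus gallus) embryos of wild type, taken at stage HH9- of the Hamburger-Hamilton series, reached after about 30 h at 37 °C. There were 4 libraries in 2 groups. The oxidized group had 2 libraries whose small RNA was treated with sodium periodate before cloning, and the total group had 2 libraries of the untreated portion of the samples. The question of the comparison was which small RNAs withstand periodate. The labels do not state whether replicates are separate pools of embryos, and a p-value thus reflects only the spread between these libraries, which may be technical.

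MicroRNAs are short RNAs cut from hairpin precursors by the nucleases Drosha and Dicer and loaded into Argonaute proteins, where they guide the repression of messenger RNAs. Their last nucleotide in animals carries free 2′ and 3′ hydroxyl groups, which periodate oxidizes, and an oxidized end cannot be joined to the cloning adapter. PIWI-interacting RNAs (piRNAs) carry a 2′-O-methyl group on that nucleotide and are protected. An oxidation ratio is used here to compare rows by their share of all assigned reads (the sum over the 6 tables of a library). It is the share in the oxidized library divided by the share in the total library with the same number. A share also depends on the other rows of its library, so the ratio does not give the amount of RNA that was left. Where a row or ID is said to have kept or lost more, or to be resistant, its share is meant.

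The rows carry Ensembl IDs without miRNA names, and 0 of the 66 IDs were found in the RefSeq gene table available. No miRNA is therefore named, no function is given to an ID, no sequence is shown, and the tissue could not be checked against marker miRNAs. The 66 IDs are called by their ID and by their rank in mean counts per 1000000 assigned reads (CPM) over the total libraries. No ID of the 66 had the same 4 counts as another row of any table, but some had nearly the same counts. ENSGALG00000050455 and ENSGALG00000021728, the latter named after its values were seen, had 10360 and 10269 reads in total replicate 1. In oxidized replicate 1 they had 121 and 132. ENSGALG00000028381 and ENSGALG00000026201 had 11322 and 11411 in total replicate 1 and 79 and 69 in oxidized replicate 2. Whether such IDs share reads was not tested, so they may not be separate. In bulk RNA, fewer cells of a type and less RNA per cell cannot be told apart. Assigned reads numbered 17962725 and 14946049 in the total libraries, replicate 1 first, and 10981001 and 14081954 in the oxidized ones.

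The 66 IDs made up nearly all miRNA reads before oxidation and most of them after it. They held 98.2% and 98.4% of the miRNA reads in total replicates 1 and 2, and 84.5% and 85.5% in oxidized replicates 1 and 2. Of all assigned reads they held 74.3% and 67.0% in the total libraries (exact 95% binomial intervals 74.2 to 74.3% and 67.0 to 67.1%). In the oxidized libraries they held 1.32% and 1.39% (intervals 1.31 to 1.33% and 1.38 to 1.39%). The intervals take each read as independent. Both shares were lower after oxidation in both libraries. The summed share of assigned reads was 70.7% ± 5.10 in total and 1.35% ± 0.0466 in oxidized libraries (mean ± SD, n = 2 each), 52.2-fold lower. With 2 libraries against 2 there are 6 arrangements, so an exact two-sided permutation test cannot give a p below 0.333, and it gave 0.333 for each share (0.333 after Benjamini-Hochberg adjustment over 4 comparisons). Without the most abundant ID the fold was 39.4.

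Each of these IDs had a lower share after oxidation, in both libraries. In reads, the 66 IDs spanned 7249 to 4626121 (median 34088) in total replicate 1 and 5058 to 3761506 (median 23592) in total replicate 2. After oxidation they spanned 4 to 22052 (median 760.5) in replicate 1 and 1 to 29640 (median 1082.5) in replicate 2. For all 66 IDs both oxidized shares lay under both total shares, which held for 64.8% of the 1326 rows tested. In edgeR's quasi-likelihood test on all tables, 64 of the 66 were lower at an adjusted p under 0.05 and 0 were higher, against 57.3% lower and 15.7% higher of all rows tested and 81.8% lower and 1.04% higher of the 385 miRNA rows tested. At an unadjusted p under 0.05, 65 were lower and 0 higher in edgeR, against 58.1% lower and 16.1% higher of all rows tested. DESeq2 had 66 lower and 0 higher at an adjusted p under 0.05, against 54.4% and 15.8%. With the replicate number as a block 66 were lower and 0 higher, against 12.5% and 7.47%. Since the total-library reads that chose the IDs are 1 side of this contrast, nothing is read from these counts. The IDs that did not pass were ENSGALG00000050455 and ENSGALG00000046922, whose oxidized replicates differed most (edgeR adjusted p = 0.067 and 0.16). With the block both were lower (edgeR adjusted p = 0.0051 and 0.032). The block takes libraries with the same number as pairs, which no label states, and leaves fewer degrees of freedom to measure the spread.

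**Figure D1:**
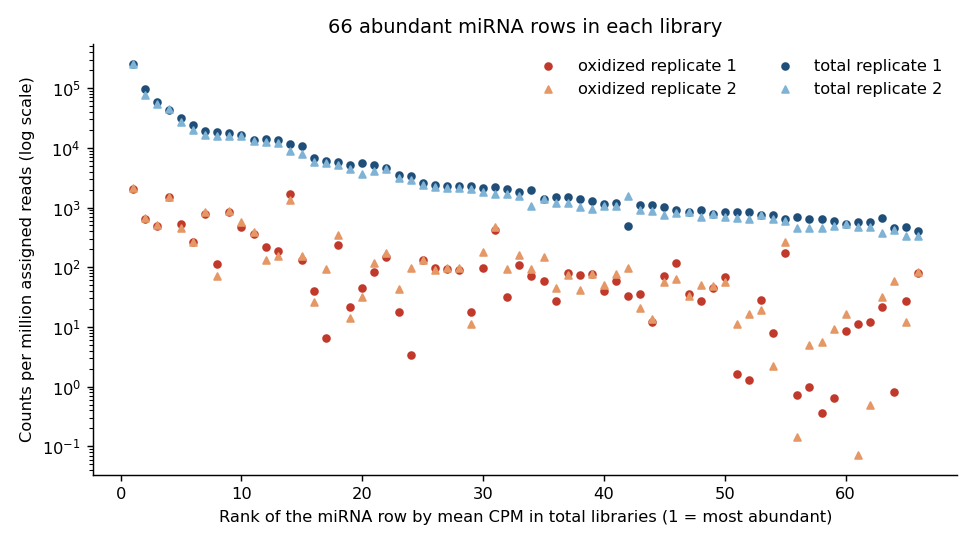
CPM (log scale) of the 66 IDs against their rank in the total libraries, 1 symbol per library. The total libraries lie close together for most IDs and furthest apart at rank 42. Every oxidized value lies below both total values of its ID. The oxidized replicates lie close together at the first ranks and scatter widely at the last.

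The miRNA reads before oxidation were concentrated in very few IDs. ENSGALG00000021771, rank 1, held 34.1% and 36.9% of the miRNA reads of total replicates 1 and 2, at 257540 and 251672 CPM. Ranks 2 and 3, ENSGALG00000049537 and ENSGALG00000021776, brought the first 3 IDs to 54.7% and 55.9%. In each total library 3 IDs thus held more than 50% of the miRNA reads. The first 10 held 77.2% and 78.5%, and they were the same 10 IDs in both total libraries.

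After oxidation the reads were spread over more IDs. To reach 50% of the miRNA reads took 7 IDs in oxidized replicate 1 and 8 in oxidized replicate 2. ENSGALG00000021771 kept rank 1 in both oxidized libraries, but with 12.8% and 13.0% of the miRNA reads (12.9% ± 0.0922 against 35.5% ± 2.02, n = 2). The IDs next to it changed. ENSGALG00000026107, rank 14 in both total libraries, stood at rank 2 and rank 3 after oxidation. ENSGALG00000018326, rank 4 before, stood at rank 3 and rank 2. All of the first 10 IDs in each oxidized library were among the 66, and 8 of those 10 were among the first 10 of the total libraries. Among the first 66 rows of the oxidized libraries, 48 and 50 were abundant IDs. The lowest of the 66 stood at rank 138 and rank 164.

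**Figure D2:**
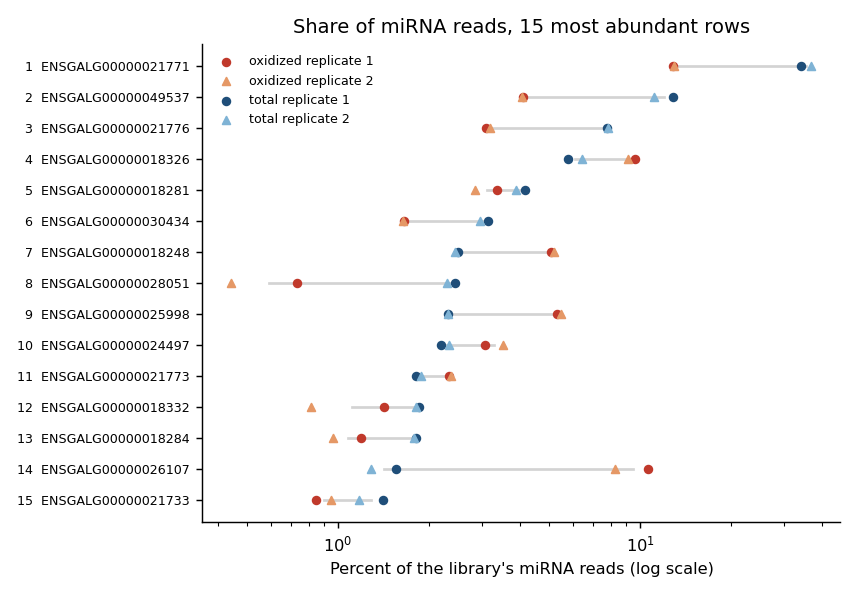
Percent of a library's miRNA reads (log scale) for the 15 most abundant IDs, 1 symbol per library, with a grey line between the means of the groups. The 3 first IDs and those at ranks 5, 6, 8, 12, 13 and 15 lie to the left after oxidation. To the right lie ENSGALG00000018326, ENSGALG00000018248, ENSGALG00000025998, ENSGALG00000024497, ENSGALG00000021773 and ENSGALG00000026107. With TMM or DESeq2 scaling ENSGALG00000018326, ENSGALG00000024497 and ENSGALG00000021773 lose this direction. Of the IDs to the right, only ENSGALG00000026107 was called higher in each scaling.

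The 66 IDs differed widely in their oxidation ratios. By the mean log2 ratio of the pairs, the median ID was 32.8-fold lower after oxidation, and the middle 50% lay between 18.9- and 122-fold. The extremes were 2.90- and 1522-fold. The 2.90-fold extreme was ENSGALG00000018278, most of whose reads lay on the reverse strand, and the next ID was 4.35-fold lower. The SD of the log2 ratio over the IDs was 1.79, and 2.02 and 1.99 in pairs 1 and 2 taken alone. The median ratio was 33.8-fold lower in pair 1 and 28.0-fold lower in pair 2. Over all tested rows the medians were 21.0- and 27.3-fold lower. Over the 88 other miRNA rows with at least 500 reads in both total libraries they were 209- and 36.2-fold lower. No oxidized read was left in 551 of the 1326 rows tested, in 7 of the 88 and in 0 of the 66. The ratio of such a row is set by its total reads and the 0.5 read added, so these medians are not measured alike. A common scaling factor would move all ratios alike and leave the spread as it is.

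Among the first 5 IDs, those ranked 1, 2 and 3 lost more than those ranked 4 and 5. ENSGALG00000021771 had 4626121 and 3761506 reads in the total and 22052 and 29640 in the oxidized libraries. ENSGALG00000018326 had 783134 and 655039 in the total and 16502 and 20774 in the oxidized libraries. The first was 128- and 120-fold lower in pairs 1 and 2 and the second 29.0- and 29.7-fold lower, so the pairs of each ID lay far closer to each other than the IDs did. ENSGALG00000049537 was 151- and 114-fold lower, ENSGALG00000021776 121- and 103-fold, and ENSGALG00000018281, rank 5, 59.5- and 57.8-fold. In both pairs ranks 1, 2 and 3 lost more than rank 5, and rank 5 more than rank 4.

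The 5 IDs with the highest ratios were ENSGALG00000018278, ENSGALG00000018294, ENSGALG00000025416, ENSGALG00000026107 and ENSGALG00000037742, at ranks 55, 31, 66, 14 and 46. ENSGALG00000026107 had 211674 and 131223 reads in the total and 18273 and 18867 in the oxidized libraries, 7.08- and 6.55-fold lower as a share. ENSGALG00000018294 had 40294 and 24917 in the total and 4632 and 6584 in the oxidized libraries, 5.32- and 3.57-fold lower. ENSGALG00000025416 had 7249 and 5074 in the total and 889 and 1188 in the oxidized libraries, 4.98- and 4.02-fold lower. In these 3 IDs each pair kept several times more than the median ID. ENSGALG00000037742 was 7.71- and 13.2-fold lower, and ENSGALG00000018278, treated by strand further on, was 3.76- and 2.24-fold lower.

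The 5 IDs with the lowest ratios were mostly IDs with hardly a read after oxidation. ENSGALG00000021772, rank 56, had 12504 and 6836 reads in the total and 8 and 2 in the oxidized libraries. ENSGALG00000050455, rank 61, had 10360 and 7017 in the total and 121 and 1 in the oxidized libraries. ENSGALG00000028381, rank 58, had 11322 and 6683 against 4 and 79. ENSGALG00000021772 was near 0 in both oxidized libraries, whereas ENSGALG00000050455 and ENSGALG00000028381 had far fewer reads in 1 than in the other. By the estimate of molecules given further on, each of these oxidized counts was below 1 molecule. ENSGALG00000026201 had 11 and 69 reads left of 11411 and 6671, close to the counts of ENSGALG00000028381, so these IDs may not be separate. ENSGALG00000018325, rank 19, had the most reads of the 5 in every library. It had 91908 and 65238 reads in the total and 234 and 197 in the oxidized libraries, 240- and 311-fold lower. By the estimate its oxidized reads were still only 1.92 and 1.51 molecules.

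Whether an ID was kept more or less than miRNA as a whole was tested on its share of the miRNA reads, with edgeR's quasi-likelihood test over the miRNA table. Of the 66 IDs, 26 took a higher share of the miRNA reads after oxidation and 12 a lower one at an adjusted p under 0.05, against 16.6% higher and 23.0% lower of the 331 miRNA rows tested. In 33 IDs both oxidized libraries lay above both total ones, against 22.4% of the rows tested, and in 22 both lay below, against 57.1%. The split depends on the scaling. With the most abundant ID left out of the library size 13 were higher and 15 lower, against 11.2% and 27.9% of 330 rows. With TMM factors 6 were higher and 15 lower, against 8.76% and 33.2% of 331 rows. With DESeq2 13 were higher and 26 lower, against 15.7% and 44.1%. With TMM factors the part of the 66 called higher was thus near the background, and nothing about the 66 as a group is read from the higher calls. The fit with replicate number as a block had 25 higher and 15 lower, against 11.8% and 4.53%. Leaving out the most abundant ID, TMM factors and DESeq2 moved the median of the 66 by -0.43, -0.67 and -0.91 on the log2 scale. In the main fit and in each of these scalings, the block aside, 5 IDs were called higher and 12 lower. How many of all miRNA rows tested kept their calls in this way, or in all alternatives, was not counted. No background thus stands beside these counts. The total-library reads that chose the IDs are 1 side of this comparison too, so the counts are descriptions.

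The 5 IDs called higher in each scaling were also called higher in all other alternatives run. They were ENSGALG00000018278, ENSGALG00000018294, ENSGALG00000025416, ENSGALG00000026107 and ENSGALG00000018320, the last named after its values were seen. Most reads of ENSGALG00000018278 lay on the reverse strand. ENSGALG00000026107 took 10.6% and 8.26% of the miRNA reads after oxidation and 1.56% and 1.29% before (log2 difference 2.73, SE 0.14, edgeR adjusted p = 1.4e-05, higher in both oxidized libraries). ENSGALG00000018294 took 2.70% and 2.88% after and 0.297% and 0.245% before (log2 difference 3.37, SE 0.16, edgeR adjusted p = 1.3e-05). The gap between the groups was many times the gap between replicates in both IDs.

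Of the 12 IDs called lower in each scaling, 8 were called lower in all alternatives run. They were ENSGALG00000021771, ENSGALG00000049537, ENSGALG00000021776, ENSGALG00000030434, ENSGALG00000028051, ENSGALG00000018284, ENSGALG00000018279 and ENSGALG00000018325, at ranks 1, 2, 3, 6, 8, 13, 16 and 19. The rank comes from the total libraries, which are 1 side of this comparison, so nothing is read from where the 8 stand in it. The IDs at ranks 6, 8, 13 and 16 are named after their values were seen, as are ranks 7, 9, 10, 11 and 17 elsewhere. ENSGALG00000021771 was lower by a log2 difference of -1.46 (SE 0.04, edgeR adjusted p = 7.1e-07) and ENSGALG00000018325 by -2.57 (SE 0.38, edgeR adjusted p = 0.0045). The call of ENSGALG00000021772 (log2 difference -4.87, edgeR adjusted p = 0.030) was lost with the replicate block (-5.22, adjusted p = 0.10) and without total replicate 1 (-4.61, adjusted p = 0.65) or 2 (-5.06, adjusted p = 0.59). On the scale of molecules, where both oxidized libraries round to 0 and no fold is given, it did not pass either (adjusted p = 0.11). That of ENSGALG00000018281 (log2 difference -0.37, adjusted p = 0.030) was lost without total replicate 1 (-0.33, adjusted p = 0.092) and with no expression filter (-0.37, adjusted p = 0.073). ENSGALG00000018326 took 9.61% and 9.09% of the miRNA reads after oxidation against 5.77% and 6.43% before (log2 difference 0.62, edgeR adjusted p = 5.0e-04), but with TMM factors or DESeq2 the difference was -0.05 or -0.28 and did not pass. ENSGALG00000024497 and ENSGALG00000021773, ranks 10 and 11, were higher by 0.54 and 0.35 (edgeR adjusted p = 0.014 and 0.038). With TMM factors they stood at -0.14 and -0.32 and did not pass, and with DESeq2 they were lower, at -0.37 and -0.56 (DESeq2 adjusted p = 0.0029 and 0.0019).

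Most IDs kept a similar part in both pairs, and a minority did not. Over the 66 IDs the log2 ratios of pairs 1 and 2 had a Pearson correlation of 0.59 and a Spearman correlation of 0.77. The pairs share no library, but all IDs of a pair share its libraries and depth, so the correlations are descriptions. For 58 of the 66 IDs both ratios lay on the same side of that pair's median. Of the 10 highest IDs in each pair 5 were shared, and of the 10 lowest 2. The ratios were within 1.5-fold of each other for 38 IDs, within 2-fold for 46, and over 4-fold apart for 10. Some of these 10 had nearly the same counts as another of them, so the 10 may not be separate. Differences between IDs made up 56.3% of the variance of the log2 ratios, and differences between the pairs the rest.

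The agreement was close at high abundance and poor at low abundance. Among the 22 most abundant IDs the Pearson correlation of the pairs was 0.81 (Spearman 0.91) and the median gap between the pairs 1.21-fold. Among the next 22 they were 0.68 (0.74) and 1.41-fold, and among the last 22 they were 0.47 (0.70) and 2.50-fold. The total replicates differed far less than the oxidized ones. The log2 ratio of total replicate 2 to total replicate 1 had an SD of 0.30 over the 66 IDs, against 1.88 for oxidized replicate 2 to oxidized replicate 1. For 61 of the 66 the total shares were within 1.5-fold of each other.

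**Figure D3:**
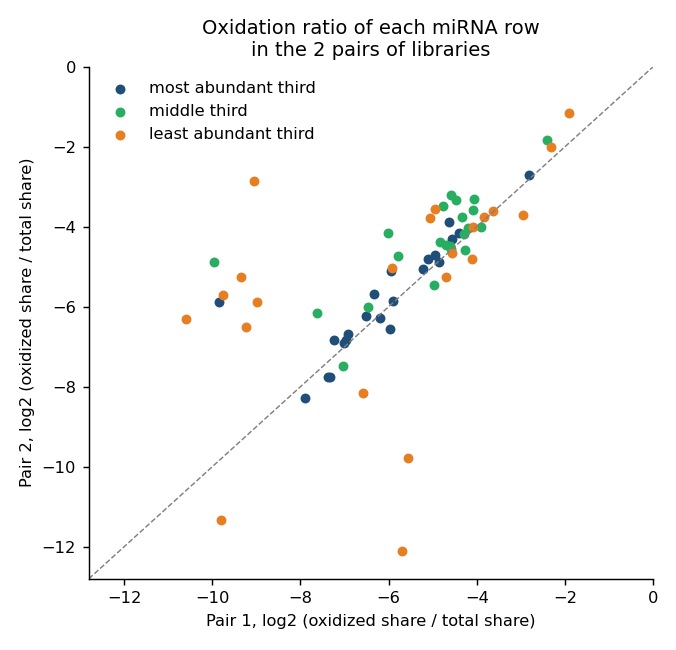
Log2 oxidation ratio of each of the 66 IDs in pair 1 (horizontal) and pair 2 (vertical), coloured by abundance in the total libraries in groups of 22. Points on the dashed line kept the same part in both pairs. The 22 most abundant IDs lie along it except for ENSGALG00000050304, while 10 IDs, 8 of them from the least abundant group, lie over 4-fold away from it.

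The IDs with the widest gaps had reads in 1 oxidized library and almost none in the other. For ENSGALG00000050455 the oxidized libraries held 121 and 1 reads, replicate 1 first. ENSGALG00000046922, rank 64, had 9 and 831, and ENSGALG00000018250, rank 24, had 37 and 1368. Their total counts were alike in both libraries, 10360 and 7017, 8297 and 6385, and 61152 and 43167. The pairs of these IDs differed 84.6-, 73.8- and 33.5-fold. Leaving out an oxidized library set the side on which ENSGALG00000046922 and ENSGALG00000018250 fell in the miRNA share. ENSGALG00000046922 was higher without replicate 1 (log2 difference 2.56) and lower without replicate 2 (-3.56). ENSGALG00000018250 was at 0.45 without replicate 1 and at -4.34 without replicate 2, and with the replicate block it was lower (-1.92, adjusted p = 0.0019). Its lower share of assigned reads (edgeR adjusted p = 0.048) was lost with TMM factors (adjusted p = 0.059).

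An estimate of reads per molecule, made in the oxidized libraries, puts these reads on a scale of molecules. Rows of the table of other genes with at least 20 reads in 1 oxidized library and 0 in the other had a median of 122 reads in replicate 1 and 130.5 in replicate 2. If each such row stands for 1 molecule, which was not tested, there were about 1189 and 1497 molecules of the 66 IDs together. ENSGALG00000021771 alone would stand for 181 and 227 of them. The limit of 20 reads leaves out rows with fewer, which can only raise the estimated reads per molecule. By this estimate 24 IDs in oxidized replicate 1 and 17 in oxidized replicate 2 had fewer than 3 molecules. All 10 IDs whose pairs were over 4-fold apart had fewer than 1 in an oxidized library. A gap this wide goes with a low count on 1 side, so this is partly by construction and nothing is read from it. An ID with a read has at least 1 molecule, so an estimate below 1 means only few reads. ENSGALG00000021772, for example, came out at 0.066 and 0.015. The 53 IDs with at least 1 in both had a median gap of 1.30-fold and a highest gap below 4-fold, a group that its definition keeps from the widest gaps. Their ratios still ran from 2.90-fold lower, in ENSGALG00000018278 with its mostly reverse-strand reads, to 273-fold lower. The latter was ENSGALG00000018325, at only 1.92 and 1.51 molecules in oxidized replicates 1 and 2. Counted as molecules, 66 of the 66 IDs were lower as a share of assigned reads and 0 higher, against 22.9% and 18.5% of 907 rows tested. Of the miRNA reads 21 took a higher and 12 a lower share, against 12.5% and 3.65% of 329 rows.

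Resistance followed abundance weakly or not at all over the whole group. To keep the same library off both axes, the ratio of a pair was set against the share in the total library of the other pair. The Spearman correlation over the 66 IDs was -0.11 for pair 1 and -0.22 for pair 2 (Pearson -0.06 and -0.15). The medians did not fall in order of abundance. The 22 most abundant IDs had a median ratio 68.0- and 58.4-fold lower in pairs 1 and 2, the next 22 had 24.3- and 19.5-fold, and the last 22 had 39.6- and 30.3-fold. The last 22 were also the most spread, with a SD of the mean log2 ratio of 2.35, against 1.38 and 1.26 in the others. Their median number of molecules by the estimate was 1.51 and 1.94.

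Within the 51 IDs with at least 10000 reads in both total libraries the Spearman correlations were -0.43 and -0.49. In that range more abundant IDs had lower ratios. The range is set by total-library reads, which are 1 side of the ratio, so the stronger correlation is only a description. The 22 most abundant IDs were themselves mixed: 9 were over 80-fold lower in mean CPM and 6 under 30-fold. Among the latter ranks 4, 7, 9 and 14 stood at 29.4-, 21.7-, 19.4- and 6.85-fold. The 10 highest ratios lay at ranks 14 to 66 (median 42), with 1 of them in the 22 most abundant. The 10 lowest lay at ranks 8 to 62 (median 56.5), with 4 of them in the 22 most abundant.

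**Figure D4:**
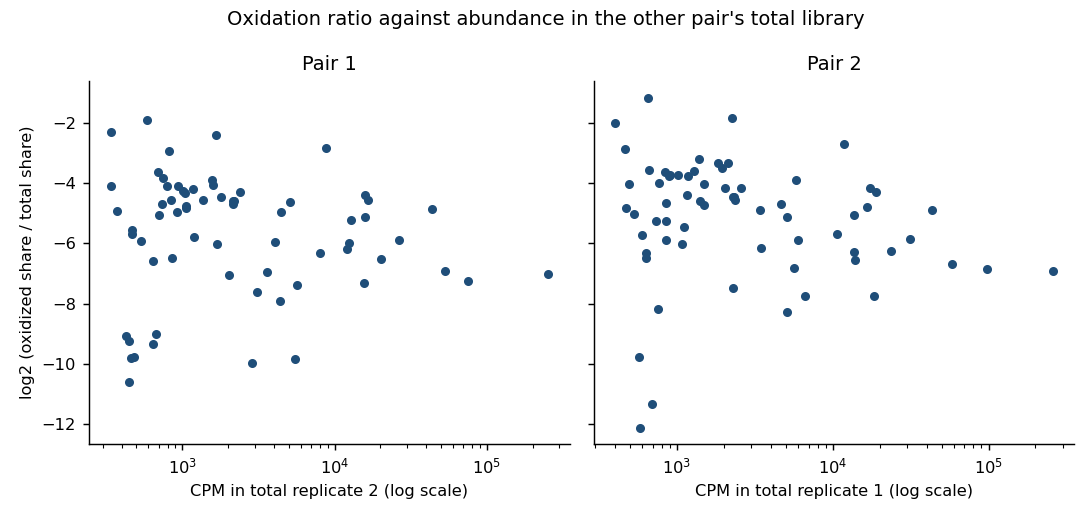
Log2 oxidation ratio of the 66 IDs in each pair against CPM (log scale) in the total library of the other pair. The cloud slopes down slightly to the right, and most of the lowest ratios stand at the left, with ENSGALG00000018250 and ENSGALG00000050304, ranks 24 and 17, also among the lowest in pair 1.

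The total libraries differed most for 1 ID, and its oxidized libraries differed with them. ENSGALG00000037350, rank 42 and named after its values were seen, had 8892 reads in total replicate 1 and 23477 in total replicate 2. Its oxidized reads numbered 360 and 1365 in the same order, or 2.95 and 10.5 molecules by the estimate. As a share of assigned reads, replicate 2 was 3.17-fold higher in the total and 2.96-fold higher in the oxidized libraries. Its ratio was accordingly nearly the same in both pairs, 15.1- and 16.2-fold lower. Over the other IDs the total replicates differed by at most 1.83-fold.

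The strand of the reads separated 1 ID from the rest. Apart from ENSGALG00000018278, at most 0.0064% of the reads of the 66 IDs lay on the reverse strand in any library. The next highest, ENSGALG00000018258, had 1.95% and 1.40% there in the total libraries and 0 of 980 and 1371 reads in the oxidized ones. ENSGALG00000021733 and ENSGALG00000046922 were each at 0.313% or less in every library.

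In ENSGALG00000018278, rank 55, most reads lay on the reverse strand, and it was the ID with the highest oxidation ratio. Its reverse reads numbered 8500 and 6688 in total replicates 1 and 2, and 1768 and 3664 in oxidized replicates 1 and 2. Its forward reads, taken as unstranded minus reverse, numbered 3233 and 2040 in the total and 138 and 2 in the oxidized libraries. The reverse share was 72.4% and 76.6% in the total and 92.8% and 99.9% in the oxidized libraries, without overlap between the groups (exact two-sided permutation p = 0.333, the smallest this design allows). No share over other rows stands beside this. The reverse reads were 2.94- and 1.72-fold lower as a share of assigned reads in pairs 1 and 2. The forward reads were 14.3-fold lower in pair 1, and in pair 2 only 2 reads remained. The oxidized forward reads are few beside the estimates of 122 and 130.5 reads per molecule in oxidized replicates 1 and 2. The forward fold and the shift in reverse share thus rest on few molecules.

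Refitted by strand, an addition made after the values were seen, the reverse reads of ENSGALG00000018278 were lower after oxidation (log2 fold change -1.13, SE 0.32, edgeR adjusted p = 0.018), against 33.3% lower of 210 rows tested on that strand. The forward reads had a log2 fold change of -4.64 (SE 2.10) and did not pass (edgeR adjusted p = 0.13), with 57.5% of 1193 rows lower. Unstranded, it was lower by -1.51 (SE 0.31, edgeR adjusted p = 0.015), a call lost without total replicate 1 (adjusted p = 0.067). The difference between the strands was not fitted.

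**Figure D5:**
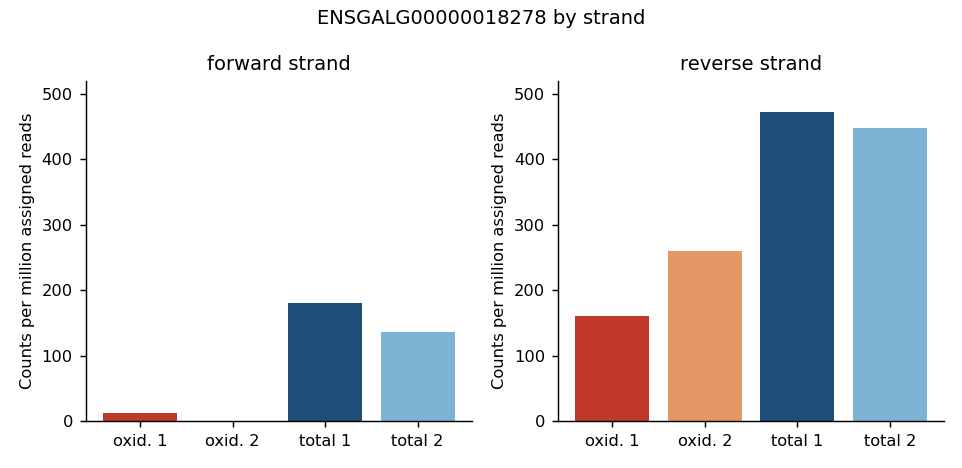
Forward and reverse reads of ENSGALG00000018278 as CPM, 1 bar per library, both axes from 0. Reverse reads stood at 473 and 447 in the total and 161 and 260 in the oxidized libraries, and forward reads at 180 and 136 against 12.6 and 0.142.

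At the edge of the group, the IDs just above 5000 reads were ENSGALG00000018269, ENSGALG00000025416 and ENSGALG00000018350, with 5058, 5074 and 5550 reads in total replicate 2. The rows just below were ENSGALG00000018265, ENSGALG00000046872 and ENSGALG00000021908, with 4543, 4448 and 4213. ENSGALG00000018265 had 2126 and 1258 reads after oxidation, while ENSGALG00000046872 had 116 and 2, so rows on both sides of the limit differed in what they kept. Beyond the 66, 9 miRNA rows stood among the first 66 of both oxidized libraries. These rows had fewer than 5000 reads in a total library and between 518 and 6211 reads in each oxidized library.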

How the data were processed

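Each library had 6 tables of raw read counts, deposited by the authors as unstranded and as reverse-strand counts (48 files). The counter was featureCounts and the build galGal6, per the submitters' processing notes. The aligner, the annotation and the handling of multi-mapping reads are not given in the sources used here, so near-identical copies may share reads. The IDs and lists were chosen with earlier results of these data known. CPM was computed as counts per 1000000 assigned reads, and 0.5 read was added before a log2 ratio. Counts were fitted with edgeR 4.0.16 in R 4.3.3 (glmQLFit, glmQLFTest, default filter, no TMM factor, because most rows were not expected to be unchanged) and adjusted by Benjamini-Hochberg over all rows tested at 0.05. The first fit used all tables, the second the miRNA table with its own sum as library size. The script was tested on simulated data. Intervals are exact (Clopper-Pearson, 95%), take each read as independent and leave out the spread between libraries. PCR copies are not independent molecules, so the intervals may be too narrow even for counting error. Permutation tests used scipy 1.17.1.

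IDs were named where they were the first 5 in total, the first 3 in oxidized libraries, the 5 highest or lowest by ratio, the 3 with the widest gap between pairs, the 3 at each side of the limit, or the 3 with most reverse reads, and others as stated. Libraries with the same number were treated as pairs, because the series text says that samples were divided between the treatments, but no label ties the numbers to that division. Their deviations from the group means correlated by 0.055 over 1326 rows and by 0.089 over the 66 IDs (0.036 without ENSGALG00000037350). Alternatives were TMM, DESeq2 1.42.0, other filters, library sizes and read limits, crossed pairs, a replicate block and leaving out each library.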

Additional observations from a re-analysis of the deposited data

How the results depend on the processing

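With the replicate number as a block 66 IDs were lower as a share of assigned reads (12.5% of all rows tested), and 25 took a higher and 15 a lower share of miRNA reads (11.8% and 4.53% of the miRNA rows tested). Among the IDs named by the rules above, the block changed the calls of ENSGALG00000018250 and ENSGALG00000021772 in the miRNA share. In the share of assigned reads it changed those of ENSGALG00000050455 and ENSGALG00000046922. Lower calls in the miRNA share numbered 12 without the block, so the block also changed calls of IDs not listed here.

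In the alternatives that kept all 4 libraries, 63 to 66 IDs were lower as a share of assigned reads and 0 were higher. Of all rows tested, 12.5 to 71.4% were lower and 3.46 to 18.5% higher in these alternatives. The total-library reads chose the IDs, so nothing is read from these counts. In the miRNA share 6 were higher with TMM factors, 13 with DESeq2, 16 with no filter and 13 with the most abundant ID left out of the library size, and 26 were lower with DESeq2. With no filter the background was 6.10% higher of the rows tested. Leaving out each library gave 15 to 36 higher and 10 to 25 lower, against 12.2 to 24.4% and 5.76 to 24.4% of the rows tested. ENSGALG00000018326 turned to -0.052 with TMM and -0.28 with DESeq2, ENSGALG00000046922 ranged from -3.56 to 2.56 and ENSGALG00000018250 from -4.34 to 0.45 with an oxidized library left out. The cause was not tested.

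Leaving all miRNA reads out of the library size gave a median log2 ratio of -6.85, against -5.03. With limits of 2000 and 10000 reads (93 and 51 IDs) the SD of the log2 ratios was 2.26 and 1.44, the Pearson correlation of the pairs 0.64 and 0.77, and the Spearman correlation 0.68 and 0.86. With 10000 reads the Spearman correlations with abundance were -0.43 and -0.49. In the 36 IDs with at least 500 reads in both oxidized libraries the pairs correlated by 0.95 (Spearman 0.90), and with abundance by -0.78 in both pairs. That limit removes less abundant IDs with low ratios by its construction. Without the most abundant ID the summed share was 39.4-fold lower, against 52.2-fold, and without each library in turn it was 49.5- to 54.8-fold. With crossed pairs the median log2 ratio was -5.03 and its SD 1.79, the pairs correlated by 0.57 (Spearman 0.74), and the Spearman correlations with abundance were -0.14 and -0.16. In oxidized replicates 1 and 2, 11 and 6 IDs had fewer than 100 reads. Whether depth limits them was not tested.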
